A study of Mus musculus with 9 samples.

Results

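Retinoids are vitamin A (retinol) and the compounds made from it, and the genes described here make, break down or carry them. They are 9 listed mouse genes: the retinol and retinal dehydrogenases Rdh16f2, Rdh16, Rdh7, Rdh10 and Rdh11, the retinal dehydrogenase Aldh1a1, the retinoic acid hydroxylase Cyp26a1, and the plasma carriers Rbp4 and Ttr. All 9 were among the 10897 genes tested, out of 15493 genes with a junction read. The genes were selected on these values, their unique junction reads in the 3 groups, with earlier results of the same libraries in view, so their levels are given as a description, without a test. A value counts uniquely mapped reads that cross an annotated splice junction of the gene, and is given as CPM, the count relative to the library's total after scaling by the trimmed mean of M-values (TMM).

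The libraries came from livers of C57BL/6 mice in 3 groups of 3 libraries: wild type (WT), mice with a YAP transgene (YAP), and mice with the YAP transgene and a knockout of Lsd1 (YAP_Lsd1ko). YAP is a transcriptional co-activator held back by the Hippo pathway, and LSD1, the product of Kdm1a, removes methyl groups from histones. Every mouse, WT included, was given AAV8-ApoE/ATT1-Cre, a virus that carries a Cre recombinase gene, by intraperitoneal injection. Doxycycline at 30 mg per L of drinking water over 14 days turned on the transgene, and the labels do not state separately whether the WT mice drank it. No group had the Lsd1 knockout without the transgene, the tissue was whole liver with all its cell types, and nothing in the labels tells whether the libraries of a group were from different animals, so every test measures only the spread between these libraries. The study's stated purpose was to look at changes in transcription caused by YAP and LSD1 in the liver.

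In the liver, retinol is stored as esters, mostly in stellate cells, and hepatocytes release it to the blood bound to RBP4, which travels together with transthyretin, the product of Ttr. Inside cells, dehydrogenases of the RDH and ADH families oxidise retinol to retinal, aldehyde dehydrogenases oxidise retinal to retinoic acid, and retinoic acid acts through the nuclear receptors RAR and RXR. CYP26 enzymes hydroxylate retinoic acid and so remove it, and the Cyp26a1 gene is a textbook target of retinoic acid itself.

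Each library held 6910297 to 9925154 unique junction reads. Multi-mapped junction reads ranged from 3403801 to 17283950 in WT, from 1307895 to 1322428 in YAP and from 2701326 to 10158036 in YAP_Lsd1ko, and they entered only 1 alternative count. Yap1 stood at 18.9 ± 1.27 CPM in WT (SD, n = 3, as for every mean ± SD here), 74.7 ± 6.89 CPM in YAP and 37.8 ± 8.92 CPM in YAP_Lsd1ko, so the knockout libraries also had less Yap1 RNA than the YAP libraries (log2 fold change -0.98, SE 0.166, edgeR adjusted p = 0.0213). That call was lost without WT replicate 3, YAP replicate 1, YAP replicate 3 or YAP_Lsd1ko replicate 3. Kdm1a was at 15.8, 35.4 and 25.3 CPM in YAP_Lsd1ko replicates 1, 2 and 3, against 30.1 to 38.3 CPM in WT and 36.7 to 46.2 CPM in YAP. The library labelled YAP_Lsd1ko replicate 2 thus lay within the WT range of Kdm1a, and it also lay among the WT libraries on the principal component that held 57.1% of the variance. Fold changes of the knockout group are therefore also given without it. The 6 hepatocyte markers (such as Alb and Apob) summed to between 113460 and 212140 CPM in every library, mostly Alb, and 0 of 6 passed in any comparison. Apob, Cps1 and Tat were each lower in all YAP than in all WT libraries, as were 22.8% of all genes. In WT and YAP, Apob stood at 8904 to 11283 and 6144 to 8662.5 CPM, and Cps1 at 11731 to 16457 and 6123 to 9548 CPM. Tat stood at 1257 to 1299 and 452 to 1035 CPM. Alb, Apoa1 and Fga overlapped between WT and YAP.

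In YAP against WT, 5 of the 9 genes were past the edgeR threshold (adjusted p under 0.05 over all genes tested), beside 17.4% of all genes. Among these, 4 (Rdh16f2, Rdh16, Rdh11 and Ttr) were lower, beside 10% of all genes, and 1 (Cyp26a1) was higher, beside 7.44%. The groups overlapped in no library for 6 of the 9, beside 44.3% of all genes, with Rdh10 making 5 lower (22.8% of all genes) and Cyp26a1 the 1 higher (21.5%). In YAP_Lsd1ko against YAP, 2 of the 9 were past the threshold (2.12% of all genes), with Rdh16f2 and Rdh16 higher (1.75%) and none lower (0.367%). For 5 of the 9 the groups did not overlap (23.9%), with 4 higher (12.5%; Rdh16f2, Rdh16, Rdh11 and Ttr) and 1 lower (11.5%; Cyp26a1). That 2 became 0 without YAP replicate 3, 1 without YAP replicate 1 or YAP_Lsd1ko replicate 3, and 4 without YAP_Lsd1ko replicate 1. It was also 4 by DESeq2 or with a filter of 50 reads in 3 libraries, and 3 with multi-mapped reads added. In YAP_Lsd1ko against WT, 1 of the 9 was past it (2.05%), with Ttr lower (0.927%) and none higher (1.12%). For 4 of the 9 the groups did not overlap (17.6%), with 3 lower (9.91%; Rdh16f2, Rdh11 and Ttr) and 1 higher (7.68%; Cyp26a1). That 1 became 0 without WT replicate 3 or YAP_Lsd1ko replicate 3, and also 0 where these 2 groups were fitted without the YAP libraries. It became 2 without WT replicate 1 or the library labelled YAP_Lsd1ko replicate 2, by library size alone, or with the filter of 50 reads in 3 libraries. It was 3 by DESeq2. Since the 9 genes were chosen with these contrasts known, nothing is read from these counts. The comparisons with YAP share the YAP libraries, and those with WT share the WT libraries.

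**Figure D1:**
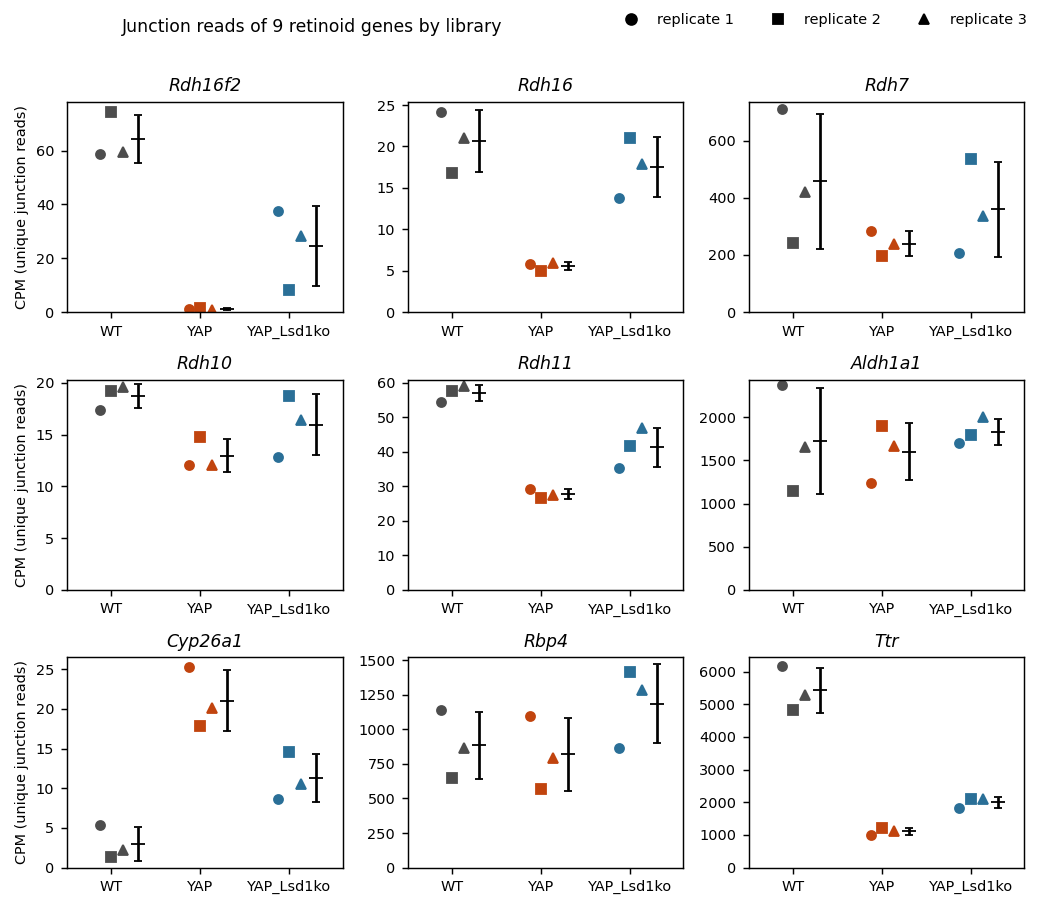
Junction reads (CPM, y axis) of the 9 genes in each library, by group, with mean and SD (bars) beside the 3 points of a group; marker shapes give the replicate number. Rdh16f2 is near 0 in the 3 YAP libraries, Cyp26a1 is highest there, and the groups overlap for Rdh7, Aldh1a1 and Rbp4.

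**Figure D2:**
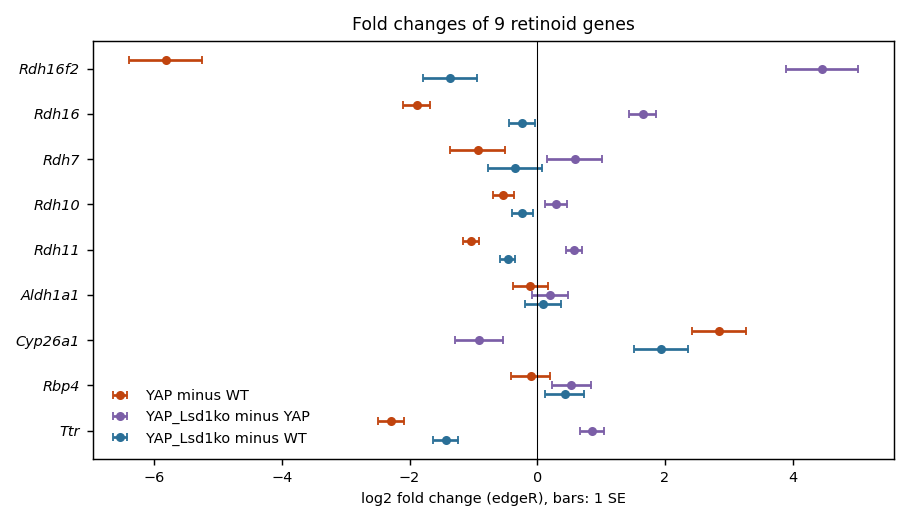
Log2 fold changes of the 9 genes (x axis) with 1 SE as bars, for the 3 comparisons. Rdh16f2, Rdh16, Rdh11 and Ttr lie left of 0 in YAP minus WT and right of 0 in YAP_Lsd1ko minus YAP, and Cyp26a1 lies on the opposite sides.

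Rdh16f2, a member of the RDH16 family of short-chain dehydrogenases (chromosome 10, 127866474 to 127877317, plus strand, GRCm38), had the largest fold among the 9 in YAP against WT and in YAP_Lsd1ko against YAP. It stood at 58.8, 74.4 and 59.4 CPM in WT, at 0.982, 1.51 and 0.851 CPM in YAP, and at 37.5, 8.27 and 28.2 CPM in YAP_Lsd1ko. The YAP values rest on 8, 13 and 7 reads, against 362 to 497 reads in the WT libraries. All YAP libraries were below all others, and all YAP_Lsd1ko libraries lay between YAP and WT, with the lowest of them being the library labelled YAP_Lsd1ko replicate 2. YAP was 56.6-fold below WT (log2 fold change -5.82, SE 0.571), and YAP_Lsd1ko was 21.9-fold above YAP (4.45, SE 0.565; 4.84 without the library labelled YAP_Lsd1ko replicate 2). YAP_Lsd1ko was still 2.58-fold below WT (log2 fold change -1.37, SE 0.423; -0.97 without that library).

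Rdh16, the enzyme for which the family is named and an oxidiser of retinol in hepatocytes (chromosome 10, 127801152 to 127846565, plus strand), had the same order of groups on a smaller scale. It stood at 24.2, 16.8 and 21.1 CPM in WT, at 5.77, 5.001 and 5.96 CPM in YAP, and at 13.8, 21.0 and 17.9 CPM in YAP_Lsd1ko. WT and YAP_Lsd1ko overlapped, and both stayed above every YAP library. The log2 fold change was -1.89 (SE 0.21) in YAP against WT and 1.65 (SE 0.209) in YAP_Lsd1ko against YAP, or 1.49 without the library labelled YAP_Lsd1ko replicate 2. Against WT it was -0.24 (SE 0.196) in YAP_Lsd1ko, or -0.39 without that library. With multi-mapped reads added it was -0.61, the lowest of the 16 alternatives. The library with the lowest Rdh16f2 of the knockout group had its highest Rdh16.

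Rdh7, a dehydrogenase that takes retinol and steroids as substrates (chromosome 10, 127884028 to 127888817, minus strand), was the most read of the cluster. It stood at 711, 242 and 421 CPM in WT, at 284, 197 and 239 CPM in YAP, and at 207, 535 and 336 CPM in YAP_Lsd1ko. All 3 groups overlapped, with the widest range in WT and the narrowest in YAP. The log2 fold change was -0.93 (SE 0.428) in YAP against WT and 0.58 (SE 0.426) in YAP_Lsd1ko against YAP. Without WT replicate 1 the former was -0.46, and without the library labelled YAP_Lsd1ko replicate 2 the latter was 0.17. In YAP_Lsd1ko against WT it was -0.35 (SE 0.424), -0.76 without the library labelled YAP_Lsd1ko replicate 2, and of the opposite sign, 0.13, without WT replicate 1.

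These genes lie side by side with Rdh9, Rdh1 and Rdh19 and are close copies of each other, so a read across a junction can be placed at 1 gene only where the bases beside it differ. The coding sequence of Rdh16 was identical to that of Rdh9 at 96.3% of bases, of Rdh16f2 at 91.8% and of Rdh7 at 86.1%. The bases on both sides of the first intron, 30 from each exon, show how alike the genes are there. They are given 5′ to 3′ from the coding strand of the GENCODE M21 transcripts (GRCm38), with capitals where a base differs from Rdh7; the introns removed between them are chr10:127887672-127888300 (minus) in Rdh7, chr10:127866869-127874828 (plus) in Rdh16f2 and chr10:127801511-127811053 (plus) in Rdh16.
Rdh7, first junction: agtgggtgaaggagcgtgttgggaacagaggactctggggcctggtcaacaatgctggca
Rdh16f2, first junction: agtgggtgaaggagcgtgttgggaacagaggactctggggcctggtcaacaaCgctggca
Rdh16, first junction: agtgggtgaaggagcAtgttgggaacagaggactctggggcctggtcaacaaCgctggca

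The Rdh16f2 window differed from that of Rdh7 at 1 of 60 bases and was identical to those of Rdh1, Rdh9 and Rdh19. At this junction 61.1% of Rdh16f2 reads and 31.0% of Rdh7 reads were multi-mapped. The last junction tells Rdh7 from the others: the windows of Rdh16 and Rdh16f2 differed from it at 23 and 24 of 60 bases. Its introns are chr10:127884769-127885672 (minus) in Rdh7, chr10:127812950-127813412 (plus) in Rdh16, chr10:127876415-127876873 (plus) in Rdh16f2 and chr10:127790353-127790815 (plus) in Rdh9, whose window is printed because it is close to that of Rdh16.
Rdh7, last junction: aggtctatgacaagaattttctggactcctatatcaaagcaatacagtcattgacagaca
Rdh16, last junction: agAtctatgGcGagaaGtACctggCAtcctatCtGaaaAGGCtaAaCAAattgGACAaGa
Rdh16f2, last junction: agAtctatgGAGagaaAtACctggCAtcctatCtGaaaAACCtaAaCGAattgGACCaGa
Rdh9, last junction: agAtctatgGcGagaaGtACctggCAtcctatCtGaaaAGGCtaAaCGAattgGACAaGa

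At the last junction 0% of the 931 Rdh16f2 reads and 0.0102% of Rdh7 reads were multi-mapped, but 26.5% of Rdh16 reads were. The low level of Rdh16f2 in YAP was seen at each of its 3 junctions, with 2.65% of the WT level at the first, 2.03% at the second and 1.17% at the last. In YAP_Lsd1ko the same junctions stood at 34.8 to 39.8% of WT. Rdh16 in YAP stood at 21.6 to 31.7% of WT over its 3 junctions. In YAP_Lsd1ko its middle junction, where 81.3% of reads were multi-mapped, stood at 37.3% of WT and its last at 106%. With multi-mapped reads added, the log2 fold change of Rdh16f2 in YAP against WT was -5.06 and in YAP_Lsd1ko against YAP 3.71, each over 1.5 times smaller as a fold than from unique reads. That of Rdh16 was -2.22 and 1.61, and -0.61 in YAP_Lsd1ko against WT. Its share of multi-mapped reads was uneven, at 46.7% in WT, 32.5% in YAP and 29.7% in YAP_Lsd1ko. For Rdh1 and Rdh19, 99.7% and 99.9% of reads were multi-mapped, and their few unique reads (10 and 3 over all libraries) allowed no comparison. Reads that map to several of these genes cannot be assigned here, so the values of Rdh16 and Rdh16f2 are uncertain to that extent. For Rdh16f2 this falls mainly on the first junction, since 1.34% of reads at its second and 0% at its last were multi-mapped.

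**Figure D3:**
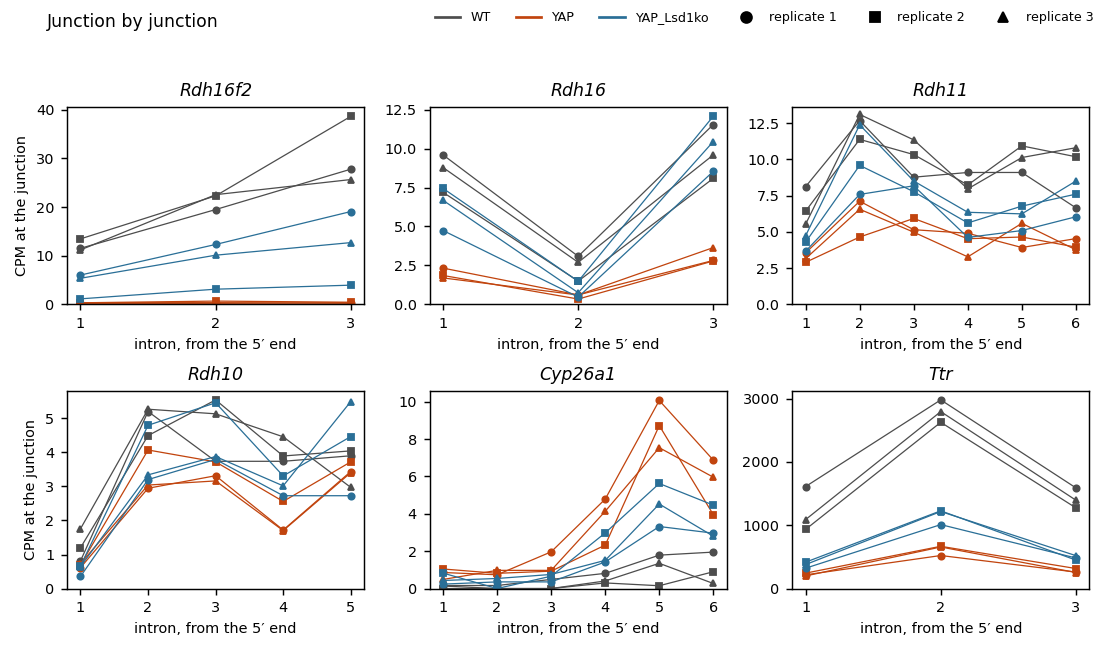
CPM at each annotated junction of the main transcript (x axis, intron number from the 5′ end) for 6 of the genes, 1 line per library, coloured by group. The YAP lines lie below the WT lines at every junction of Rdh16f2, Rdh16, Rdh11 and Ttr and above them at every junction of Cyp26a1.

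Of the other genes around them, Rdh9 (chromosome 10, 127776386 to 127792697, plus strand), another RDH16-like dehydrogenase, fell against WT both in YAP and in YAP_Lsd1ko. It stood at 8.61, 8.39 and 9.59 CPM in WT, at 0.491, 0.698 and 0.486 CPM in YAP, and at 0.474, 0.331 and 0.754 CPM in YAP_Lsd1ko. Its log2 fold change was -3.95 (SE 0.31, edgeR adjusted p = 0.00024) in YAP against WT, -0.05 (SE 0.397, adjusted p = 0.981) in YAP_Lsd1ko against YAP and -4.00 (SE 0.315, adjusted p = 0.00132) in YAP_Lsd1ko against WT. Without the library labelled YAP_Lsd1ko replicate 2 the latter values were 0.13 and -3.81. These values rest on the first Rdh9 junction alone, with 180, 14 and 13 unique reads in WT, YAP and YAP_Lsd1ko. At that junction a further 47.8%, 57.6% and 66.7% of all reads in these groups were multi-mapped and not counted. The values of Rdh9 are uncertain to that extent. Its other junctions are also annotated to Rdh16f1 and held 83, 6 and 7 reads, and 301, 45 and 29 reads. A test that Rdh9 and its neighbour Rdh16 differ in their change between YAP and YAP_Lsd1ko was not made.

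Within 500 kb of the 3 chromosome 10 members, 30 other genes were tested, of which 6 fell and 2 rose in YAP, beside 10% and 7.44% of all genes tested. Sdr9c7, a short-chain dehydrogenase next to Rdh7, stood at 13.7, 3.59 and 8.51 CPM in WT, at 0.614, 1.28 and 0.851 CPM in YAP, and at 3.68, 4.96 and 3.34 CPM in YAP_Lsd1ko. Hsd17b6, a related dehydrogenase of steroids and retinol further along the chromosome, stood at 80.6, 45.2 and 52.4 CPM in WT, at 5.77, 14.2 and 10.9 CPM in YAP, and at 63.8, 38.9 and 53.6 CPM in YAP_Lsd1ko. Both fell in YAP (log2 fold change -3.20, SE 0.512, edgeR adjusted p = 0.00423 for Sdr9c7; -2.52, SE 0.352, adjusted p = 0.00276 for Hsd17b6). Hsd17b6 alone among the 30 rose in YAP_Lsd1ko against YAP, beside 1.75% of all genes tested. Its log2 fold change was 2.34 (SE 0.35, edgeR adjusted p = 0.0164), a call lost without YAP replicate 1, YAP replicate 3 or YAP_Lsd1ko replicate 3. That fold change was 2.50 without the library labelled YAP_Lsd1ko replicate 2, and that of Sdr9c7, which did not pass (edgeR adjusted p = 0.0863), was 2.09, or 1.90 without it. The others that fell in YAP were Inhbe, Shmt2, Rdh9 and Cs, and those that rose were Stat6 and Timeless. In YAP_Lsd1ko against WT, Inhbe and Rdh9 fell, beside 0.927% of all genes tested. The calls of Shmt2, Stat6 and Timeless in YAP and of Inhbe in YAP_Lsd1ko were lost without WT replicate 3, among other libraries.

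**Figure D4:**
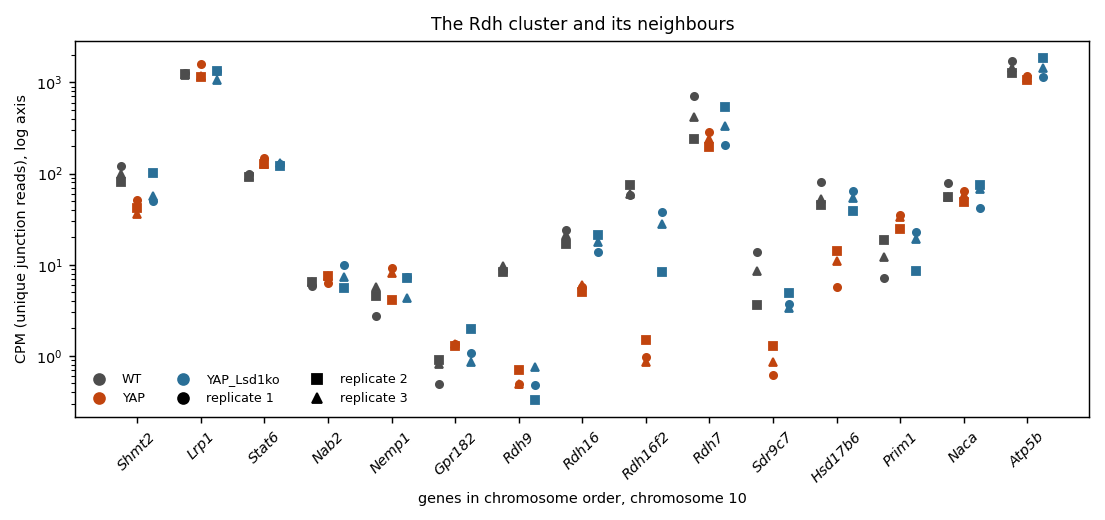
CPM (y axis, log scale) of selected tested genes around the Rdh cluster in chromosome order (x axis, not to distance), 1 point per library, coloured by group. Other tested genes within 500 kb are not drawn, among them Inhbe, Cs and Timeless, which passed in YAP against WT. From Rdh9 to Hsd17b6 the YAP points lie below the WT points, except for an overlap at Rdh7.

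Rdh11 and Rdh10 lie outside that cluster. Rdh11, a dehydrogenase of the endoplasmic reticulum that mainly reduces retinal (chromosome 12, 79174337 to 79192293, minus strand), stood at 54.4, 57.5 and 58.9 CPM in WT, at 29.2, 26.6 and 27.4 CPM in YAP, and at 35.2, 41.7 and 46.8 CPM in YAP_Lsd1ko. The 3 groups did not overlap, with YAP_Lsd1ko in the middle. The log2 fold change was -1.04 (SE 0.123) in YAP against WT, 0.57 (SE 0.122) in YAP_Lsd1ko against YAP and -0.47 (SE 0.121) in YAP_Lsd1ko against WT. The latter values were 0.55 and -0.48 without the library labelled YAP_Lsd1ko replicate 2. Its 6 junctions with 20 reads or more stood at 44.4 to 52.8% of WT in YAP and at 60.1 to 80.3% in YAP_Lsd1ko.

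Rdh10, which oxidises retinol to retinal and is needed for retinoic acid in the embryo (chromosome 1, 16105774 to 16133734, plus strand), differed less. It stood at 17.4, 19.2 and 19.6 CPM in WT, at 12.03, 14.8 and 12.04 CPM in YAP, and at 12.8, 18.7 and 16.4 CPM in YAP_Lsd1ko. YAP lay below WT without overlap, while the knockout group overlapped both. Its log2 fold change in YAP against WT was -0.53 (SE 0.17), and -0.22 where libraries were scaled by their size alone. In YAP_Lsd1ko it was 0.30 (SE 0.17) against YAP and -0.23 (SE 0.169) against WT, or 0.16 and -0.36 without the library labelled YAP_Lsd1ko replicate 2. Over its 5 junctions YAP stood at 49.5 to 96.8% of WT.

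Aldh1a1, the aldehyde dehydrogenase that makes retinoic acid from retinal (chromosome 19, 20492715 to 20643465, plus strand), had no difference between the group means beyond the spread of the libraries. It stood at 2375, 1147 and 1661 CPM in WT, at 1243, 1896 and 1666 CPM in YAP, and at 1700.1, 1798 and 2000.5 CPM in YAP_Lsd1ko. Its log2 fold changes, the first of which turned positive under scaling by library size alone, were -0.11 (SE 0.279; 95% interval -0.66 to 0.44) in YAP against WT, 0.19 (SE 0.279) in YAP_Lsd1ko against YAP and 0.09 (SE 0.279) in YAP_Lsd1ko against WT. Under that scaling it was 0.24. Without the library labelled YAP_Lsd1ko replicate 2 the latter values were 0.20 and 0.10.

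Cyp26a1, the hydroxylase that removes retinoic acid (chromosome 19, 37697798 to 37701536, plus strand), was the member that was higher in YAP. It stood at 5.36, 1.35 and 2.16 CPM in WT (33, 9 and 16 reads), at 25.3, 17.8 and 20.1 CPM in YAP, and at 8.66, 14.6 and 10.6 CPM in YAP_Lsd1ko. The groups did not overlap, and the knockout group lay between WT and YAP. YAP exceeded WT 7.19-fold (log2 fold change 2.85, SE 0.424). YAP_Lsd1ko was 1.88-fold below YAP (-0.91, SE 0.373; -1.14 without the library labelled YAP_Lsd1ko replicate 2) and 3.82-fold above WT (1.94, SE 0.426; 1.72 without that library). WT replicate 1 held most of the WT reads, and without it the differences from WT were larger, at 3.57 for YAP and 2.66 for YAP_Lsd1ko. All 6 junctions were higher in YAP than in WT, at 538 to 1553% of the WT level, and all 6 were lower in YAP_Lsd1ko than in YAP. The 1553%, at the second junction, rests on 1, 0 and 0 reads in WT replicates 1, 2 and 3.

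Rarb, which encodes a retinoic acid receptor and, like Cyp26a1, is known to be turned on by retinoic acid, was the 1 of the 39 other tested retinoid genes that rose in YAP. It stood at 5.04, 4.49 and 2.84 CPM in WT, at 9.58, 12.9 and 8.88 CPM in YAP, and at 7.71, 5.29 and 6.03 CPM in YAP_Lsd1ko. Its log2 fold change was 1.35 (SE 0.269, edgeR adjusted p = 0.0108) in YAP against WT. In YAP_Lsd1ko it was -0.71 (SE 0.257, adjusted p = 0.195) against YAP and 0.63 (SE 0.274, adjusted p = 0.314) against WT, and neither passed. Without the library labelled YAP_Lsd1ko replicate 2 these were -0.62 and 0.74, which did not pass either.

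Cyp26a1 and Rarb were taken up here as genes higher in YAP that are known direct targets of retinoic acid receptors. Their promoters, and those of other members, were searched for the receptor's usual site. A match in genes picked in this way was likely beforehand, so it is given as a description and nothing is concluded from it. The site was written as AGGTCA or AGTTCA or GGGTCA or GGTTCA, repeated in the same direction with 5 bases between, on either strand, in the 250 bases upstream of each RefSeq start (GRCm38.p6). It was found in 29 of 32851 promoter windows (0.0883%), among them Cyp26a1 and Rarb, and in no other window of the 7 members searched. None of the 3 windows of Dhrs3, a retinal reductase gene also known to respond to retinoic acid, held it. The last 120 bases before the start follow, 5′ to 3′ on the gene's strand, with the repeat in capitals; they are chr19:37697688-37697807 (plus) for Cyp26a1 and chr14:16575477-16575596 (minus) for Rarb.
Cyp26a1: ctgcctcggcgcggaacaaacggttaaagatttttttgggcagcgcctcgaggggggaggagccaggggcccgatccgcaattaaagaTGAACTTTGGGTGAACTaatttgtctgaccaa
Rarb: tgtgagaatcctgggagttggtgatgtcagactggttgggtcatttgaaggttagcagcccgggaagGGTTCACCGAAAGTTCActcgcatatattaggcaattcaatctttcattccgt

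The Cyp26a1 repeat, which reads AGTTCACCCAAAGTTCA on the other strand, lies 32 to 16 bases before the start, and the Rarb repeat 53 to 37 bases before it. GGAATG, the motif of the TEAD factors that YAP binds to, was in 12.6% of all windows. Among the members it was in 1 of 2 windows each of Rdh7 and Aldh1a1, and it was also in the Rarb window. A match describes these letters and not a bound site.

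Of the plasma carriers, Ttr, the gene of transthyretin (chromosome 18, 20665280 to 20674321, plus strand), stood at 6178.5, 4832.5 and 5277 CPM in WT, at 998, 1226 and 1108 CPM in YAP, and at 1813, 2092 and 2114 CPM in YAP_Lsd1ko. The groups did not overlap, and the knockout group lay nearer to YAP. The log2 fold change was -2.29 (SE 0.199) in YAP against WT, 0.85 (SE 0.191) in YAP_Lsd1ko against YAP and -1.44 (SE 0.194) in YAP_Lsd1ko against WT, and the latter values were 0.81 and -1.47 without the library labelled YAP_Lsd1ko replicate 2. Its 3 junctions stood at 18.1 to 22.0% of WT in YAP and at 30.7 to 41.1% in YAP_Lsd1ko.

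Rbp4, which encodes the retinol-binding protein that carries retinol out of the liver (chromosome 19, 38116629 to 38125281, minus strand), stood at 1137, 649.7 and 865 CPM in WT, at 1098, 572 and 794 CPM in YAP, and at 863, 1415 and 1282 CPM in YAP_Lsd1ko. All groups overlapped. The log2 fold change was -0.11 (SE 0.306; 95% interval -0.71 to 0.49) in YAP against WT, but 0.20 under scaling by library size alone. In YAP_Lsd1ko it was 0.53 (SE 0.306) against YAP and 0.43 (SE 0.306) against WT, or 0.38 and 0.28 without the library labelled YAP_Lsd1ko replicate 2.

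Levels of different genes are set side by side as the mean CPM per junction of the main transcript, although junctions of 1 gene can differ widely. In WT the 5 Rbp4 junctions stood at 2.04 to 357 CPM. The SDs below cover the spread between libraries and not that between junctions. In WT, Ttr led with 1809.8 ± 228.6 CPM per junction. Rbp4 (176.5 ± 48.8), Rdh7 (152.6 ± 78.9) and Aldh1a1 (143.9 ± 51.4) followed, and these means did not differ beyond the spread between libraries. Then came Rdh16f2 (21.4 ± 2.95), Rdh11 (9.49 ± 0.380), Rdh16 (6.90 ± 1.25), Rdh10 (3.74 ± 0.233) and Cyp26a1 (0.493 ± 0.354). These levels are from unique reads, and in WT 46.7% of Rdh16 reads but 3.02% of Rdh11 reads were multi-mapped and so not counted, so the order of these genes is uncertain. In YAP, Rdh16f2 was last, at 0.372 ± 0.117 CPM per junction, and Cyp26a1, at 3.51 ± 0.641, stood between Rdh11 (4.62 ± 0.222) and Rdh10 (2.59 ± 0.316). In YAP_Lsd1ko, Rdh16f2 was back above Rdh11 by its mean (8.22 ± 4.97 against 6.87 ± 0.964), with a spread that covers the difference, and Cyp26a1 was last again at 1.88 ± 0.502.

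Across the 9 libraries, the other genes most like Rdh16f2 by Pearson's r of log2 CPM were Catsperd (r = 0.982), Dhrs1 and Insc. Likewise Aadac (0.992), Ptpn3 and Sc5d were most like Rdh16, and Dpyd (0.988), Nit1 and Epb41l4b most like Rdh7. Yars2 (0.977), Dgat1 and Mocos were nearest to Rdh10, and Msmo1 (0.982), Leap2 and Rtp3 to Rdh11. Among the nearest to Aldh1a1 were Ptbp2 (0.949), Vps33a and Rad17, to Cyp26a1 Exoc6 (0.980), Phf14 and Wnt5b, to Rbp4 Fuom (0.966) and Auh, and to Ttr Elovl5 (0.991) and Atg16l1. These values describe 9 libraries in 3 groups that share the contrast between groups. Among the members, r was 0.947 between Ttr and Rdh11 and -0.890 between Ttr and Cyp26a1, but 0.0614 between the 2 carriers.

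The rest of the retinoid system was described from 58 further genes listed by role, of which 52 had unique reads and 39 were tested. This list too was made with earlier results of these data known, so its shares and medians are a description. In YAP against WT, 12 of the 39 fell and 1 rose, or 33.3%, with a median log2 fold change of -0.39 beside 17.4% and 4.1e-05 over all genes tested (10% lower and 7.44% higher). That 13 became 7 without WT replicate 3 or YAP replicate 2 and 6 without YAP replicate 3, and scaling by library size alone gave 10 falls and 3 rises. In YAP_Lsd1ko against YAP, 4 rose and 0 fell by edgeR (14 had an unadjusted p under 0.05, 2 of them lower; DESeq2 gave 7 and 1), or 10.3%, with a median of 0.34 beside 2.12% and -0.01 over all genes. That 4 became 0 without YAP replicate 3 (10 with an unadjusted p under 0.05), 1 without YAP replicate 1 or YAP_Lsd1ko replicate 3, and 2 without WT replicate 3, YAP replicate 2 or the library labelled YAP_Lsd1ko replicate 2, while it was 8 without YAP_Lsd1ko replicate 1. In YAP_Lsd1ko against WT, 1 fell (Rdh9) and 0 rose by edgeR, or 2.56% beside 2.05% of all genes, with 8 at an unadjusted p under 0.05 and 6 falls by DESeq2.

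Falls were counted in several of the roles. Of 9 tested retinol and retinal enzymes, 2 fell in YAP, Rdh9 and Adh4. Adh4, an alcohol dehydrogenase that oxidises retinol, stood at 303, 341 and 324 CPM in WT, at 64.3, 80.9 and 77.3 CPM in YAP, and at 140.0, 241 and 202 CPM in YAP_Lsd1ko. It fell in YAP (log2 fold change -2.12, SE 0.201, edgeR adjusted p = 0.000456) and rose in YAP_Lsd1ko against YAP (1.39, SE 0.197, adjusted p = 0.0133); the rise did not pass without YAP replicate 1, YAP replicate 3 or YAP_Lsd1ko replicate 3, and was 1.20 without the library labelled YAP_Lsd1ko replicate 2. Dhrs3, the retinal reductase named above, stood at 49.7 ± 14.2, 68.2 ± 13.4 and 50.3 ± 10.6 CPM in WT, YAP and YAP_Lsd1ko and did not pass (0.46, SE 0.238, adjusted p = 0.207 in YAP against WT).

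Of 4 tested genes listed under retinoic acid synthesis, 3 fell in YAP: Aox3, Aox1 and Aldh8a1. The other was Aldh1a7, an aldehyde dehydrogenase close to Aldh1a1, which stood at 449 ± 20.3, 459 ± 24.9 and 484 ± 34.5 CPM in the WT, YAP and YAP_Lsd1ko groups and did not pass (log2 fold change 0.03, SE 0.133, edgeR adjusted p = 0.89 in YAP against WT). The member Aldh1a1, whose values are given above, is listed under the same role. Whether the Aldh1a7 enzyme oxidises retinal cannot be told from these data. Aox3, a liver aldehyde oxidase, stood at 3103, 1213 and 2015 CPM in WT, at 37.6, 140.3 and 93.0 CPM in YAP, and at 341, 838 and 540.3 CPM in YAP_Lsd1ko, without overlap. It was 23.4-fold lower in YAP than in WT (log2 fold change -4.55, SE 0.603, edgeR adjusted p = 0.00225). Its rise in YAP_Lsd1ko against YAP (2.67, SE 0.555, adjusted p = 0.0491) did not pass under 11 of the 16 alternatives, leaving out the library labelled YAP_Lsd1ko replicate 2 among them (2.27). Aldh1a2, the main retinoic acid enzyme of many embryonic tissues, had 1 to 10 reads per library and was not tested.

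Among binding proteins, receptors and response genes, 2 fell in YAP and rose again in YAP_Lsd1ko. Rarres1, named for its response to a retinoid, stood at 87.6, 46.6 and 65.0 CPM in WT, at 11.0, 16.7 and 15.3 CPM in YAP, and at 56.6, 82.0 and 78.6 CPM in YAP_Lsd1ko (log2 fold change -2.21, SE 0.264, edgeR adjusted p = 0.00128 in YAP against WT; 2.33, SE 0.264, adjusted p = 0.00762 in YAP_Lsd1ko against YAP). Its fold in YAP_Lsd1ko against YAP did not pass without YAP replicate 3, and was 2.22 without the library labelled YAP_Lsd1ko replicate 2. Fabp5, a lipid-binding protein that can carry retinoic acid, fell from 55.7 ± 26.8 to 18.9 ± 2.96 CPM (-1.56, SE 0.326, adjusted p = 0.0139) and stood at 62.5 ± 6.59 CPM in YAP_Lsd1ko (1.73, SE 0.326, adjusted p = 0.0374). Its fall did not pass without WT replicate 3, YAP replicate 2 or YAP replicate 3. Its rise did not pass without any of these, YAP replicate 1, YAP_Lsd1ko replicate 3 or the library labelled YAP_Lsd1ko replicate 2 (1.80). Rxra, the common partner receptor, stood at 121 ± 19.9, 99.2 ± 14.7 and 107 ± 25.3 CPM in WT, YAP and YAP_Lsd1ko and did not pass (-0.29, SE 0.198, adjusted p = 0.336 in YAP against WT).

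Of 6 tested genes of ester storage and carotenoid cleavage, 2 fell in YAP, Dgat1 and Bco2, of 2 uptake genes 1 fell, Stra6l, and of 6 ester hydrolases 1 fell, Ces1d. Stra6l, a receptor for RBP4 found in liver, stood at 207, 166 and 192 CPM in WT and at 116, 98.97 and 103 CPM in YAP (log2 fold change -0.83, SE 0.123, edgeR adjusted p = 0.00317), and at 139.6, 134 and 127 CPM in YAP_Lsd1ko. Lrat, which esterifies retinol in stellate cells, stood at 4.51 ± 1.38, 2.82 ± 1.48 and 3.63 ± 0.410 CPM in WT, YAP and YAP_Lsd1ko (-0.67, SE 0.40, adjusted p = 0.264 in YAP against WT). The breakdown enzyme Cyp2c39 fell as well, with WT libraries that ranged from 1.63 to 135 CPM. Dgat1, Bco2, Ces1d, Aldh8a1, Aox1, Aldh1a7 and Cyp2c39 are named to complete these counts, after their values were seen, and each fall among them was lost without YAP replicate 3. The fall of Dgat1 was also lost on leaving out each other WT or YAP library in turn, and under scaling by library size alone. That of Bco2 was also lost under that scaling, with the replicate block and with multi-mapped reads added, among other alternatives.

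**Figure D5:**
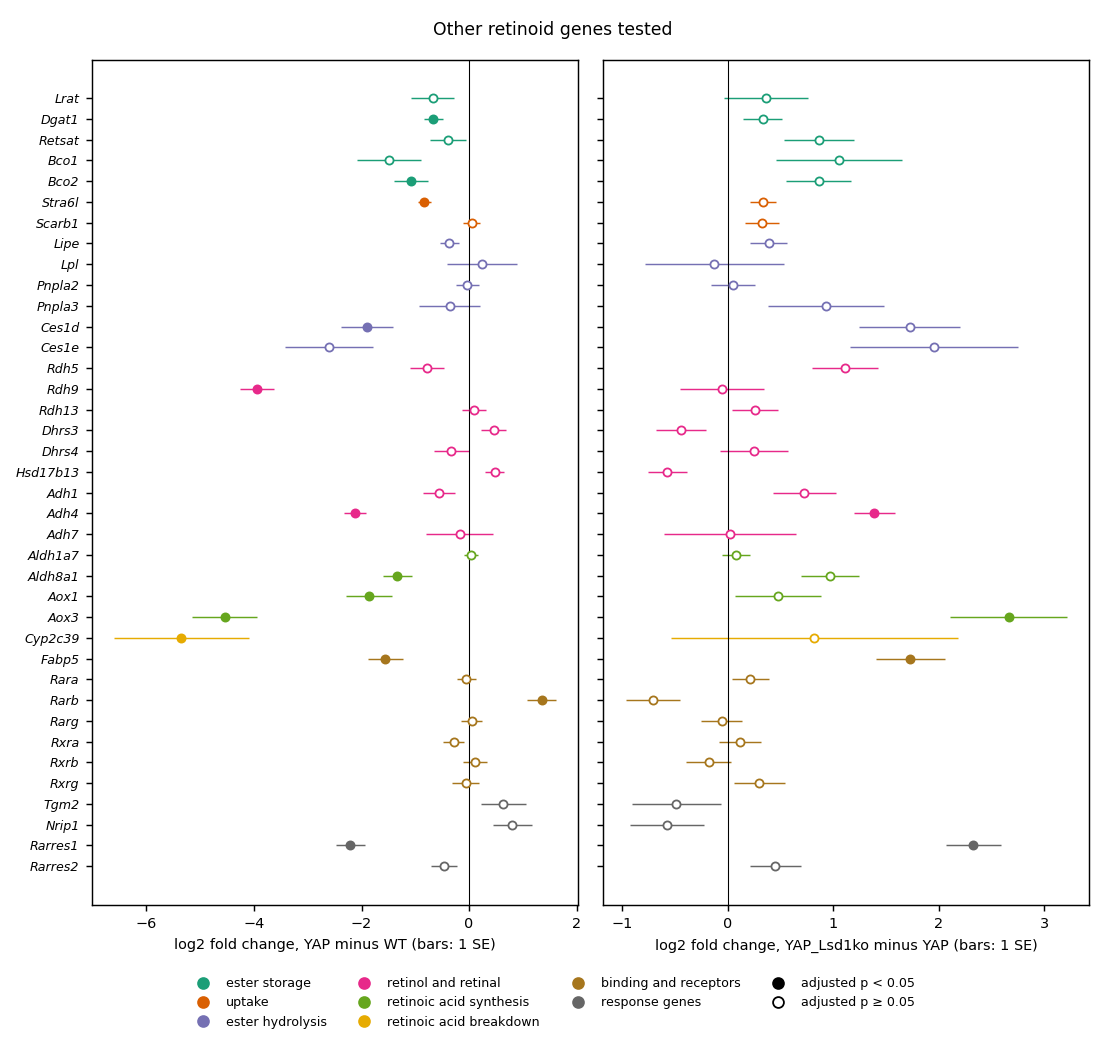
Log2 fold changes (x axes, bars of 1 SE) of tested retinoid genes outside the 9, coloured by role, in YAP minus WT (left) and YAP_Lsd1ko minus YAP (right); filled points passed the edgeR threshold. In the left panel 12 filled points lie left of 0 and 1, Rarb, lies right of it; in the right panel 4 are filled, all right of 0.

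Some markers of other cell types passed the edgeR threshold. Over all genes tested, 10% fell and 7.44% rose in YAP against WT, and 1.75% rose in YAP_Lsd1ko against YAP. The lists are short, and nothing is read from counts near these shares. In whole liver, fewer cells of a type and less RNA per cell cannot be told apart. The 6 markers of pericentral hepatocytes, the cells around the central vein, summed to 4664 to 12335 CPM in WT, 319 to 484 CPM in YAP and 918 to 6436 CPM in YAP_Lsd1ko, highest in the library labelled YAP_Lsd1ko replicate 2; 5 of 6 fell in YAP (Glul, Cyp2e1, Oat, Lgr5 and Slc1a2) and 2 of 6 rose in YAP_Lsd1ko against YAP (edgeR). The 11 stellate cell markers, Lrat among them, summed to 1041 to 1806 CPM in WT, 572 to 1149 CPM in YAP and 829 to 1149 CPM in YAP_Lsd1ko, and 2 of 11 fell in YAP (Reln and Ecm1) and 1 of 11 (Reln) rose in YAP_Lsd1ko against YAP. The 5 endothelial markers summed to 675 to 717, 601 to 709 and 623 to 654 CPM in WT, YAP and YAP_Lsd1ko, and 1 of 5 rose in YAP (Lyve1). The 6 macrophage markers summed to 338 to 707 CPM in WT, 1532 to 1785 CPM in YAP and 336 to 1647 CPM in YAP_Lsd1ko, and 3 of 6 rose in YAP. The 6 biliary markers summed to 50.5 to 107, 967 to 1149 and 156 to 617 CPM in WT, YAP and YAP_Lsd1ko, mostly Spp1, the 1 of 3 tested that rose; Sox9 was at 0 in WT replicate 1 and in the library labelled YAP_Lsd1ko replicate 2, where Cldn7 was also at 0. The part of any of these cell types in the levels of the 9 genes was not tested.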

How the data were processed

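Total RNA of mouse liver with an RNA integrity number of 8 or more was depleted of ribosomal RNA and made into stranded TruSeq libraries, per the labels' protocols. The submitters' processing notes name bcl2fastq, FastQC, STAR, featureCounts, edgeR and the build mm10, without versions. The deposited files, 1 per library, hold raw counts per splice junction, for unique and for multi-mapped reads apart, and the longest overhang, at most 38 bases, in the 9 columns of STAR's junction output; which annotation STAR had was not given in the sources used here.

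Junctions were matched by position and strand to introns of GENCODE M21 (GRCm38). Of 289955 junctions read, 150261 belonged to 1 gene and were summed, and 1806 of several genes were left out. This gave 6516711 to 9267028 reads per library. A read over several junctions counts at each, and a gene without introns has no value. Counts were fitted with edgeR 4.0.16 (R 4.3.3): quasi-likelihood test, robust, all 9 libraries in 1 fit, filterByExpr, TMM, Benjamini-Hochberg over 10897 genes, threshold 0.05. An SE is the absolute log2 fold change over the square root of F; 95% intervals use the normal approximation. The procedure was tested on simulated data. DESeq2 1.42.0, library size alone, 2 other filters, 2 groups only, a replicate block, added multi-mapped reads and each library left out were alternatives. Figures were drawn with matplotlib 3.10.9 under Python 3.11.15, with pandas 2.3.3 and numpy 2.4.6. Promoters are from RefSeq. Of the 9 members 7 were searched: Rdh10 had no entry, and Ttr was left out of the search.

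The 9 genes and the other lists were chosen with earlier results of these data known. Named beside the 9 are Kdm1a and Yap1, other genes of the Rdh cluster and tested genes within 500 kb, up to 6 passing retinoid genes per comparison with the smallest p, Lrat, Aldh1a2, Rarb, Dhrs3 and Rxra, and up to 3 genes most like each member; a few genes that these rules name are not reported here.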

Additional observations from a re-analysis of the deposited data

How the results depend on the processing

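Over 16 alternatives per comparison, the log2 fold changes of the 9 genes kept their sign, except Aldh1a1 and Rbp4 in YAP against WT (13 of 16 each) and Rdh7 and Aldh1a1 in YAP_Lsd1ko against WT (15 of 16 each). Scaling by library size alone moved the median of all genes by 0.31, -0.14 and 0.17 in YAP against WT, YAP_Lsd1ko against YAP and YAP_Lsd1ko against WT, and the share of higher calls from 42.7% to 75.9% in the first and from 54.7% to 76.2% in the last. Genes past the threshold, over all tested, were 1901 in YAP against WT (1027 with the replicate block, 748 to 2729 with 1 library left out, lowest without WT replicate 3), 231 in YAP_Lsd1ko against YAP (146 by library size alone, 46 with the replicate block, 109 with 2 groups only, 712 by DESeq2, 5 to 844 with 1 library left out, lowest without YAP replicate 3 and highest without YAP_Lsd1ko replicate 1) and 223 in YAP_Lsd1ko against WT (89 with the block, 83 with 2 groups only, 597 by DESeq2, 32 to 614 with 1 library left out, lowest without WT replicate 3 and highest without the library labelled YAP_Lsd1ko replicate 2). Of the retinoid genes outside the 9, 13 passed in YAP against WT (6 to 16 with 1 library left out), 4 in YAP_Lsd1ko against YAP (2 with the block, 8 by DESeq2, 0 to 8 with 1 left out; the 0, without YAP replicate 3, stands beside 10 at an unadjusted p under 0.05 by edgeR) and 1 in YAP_Lsd1ko against WT (2 by library size alone, 2 with 2 groups only, 6 by DESeq2, 1 to 2 with 1 left out). The cause of these shifts was not tested. With the replicate block 0 of the 9 genes were past the threshold in YAP_Lsd1ko against YAP, from 2, and 0 in YAP_Lsd1ko against WT, from 1. Whether the replicate numbers, taken from the library titles, pair the libraries is not known. Deviations from the group mean of same-numbered libraries (replicates 1, 2 and 3) correlated at 0.34, 0.30 and 0.07 between WT and YAP. They correlated at -0.65, -0.66 and 0.19 between WT and YAP_Lsd1ko, and at -0.22, -0.28 and 0.17 between YAP and YAP_Lsd1ko. Libraries of different numbers correlated at -0.32 to 0.16, -0.29 to 0.68 and -0.22 to 0.29 in these pairs of groups. Deviations within a group sum to 0 over its 3 libraries, so these values cannot decide the pairing. The block is therefore not read as a paired test. Low read counts limit Rdh16f2 in YAP and Cyp26a1 in WT.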

Other observations

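Rdh1 and Rdh19, neighbours of Rdh7 that are left out above for want of unique reads, had 3014 and 3039 multi-mapped reads at their first junctions over the 9 libraries. The first junction of Rdh7 had 3427 multi-mapped and 7638 unique reads. The 3 WT libraries had 571, 213 and 413 multi-mapped reads at Rdh1, the YAP libraries 293, 210 and 245, and the YAP_Lsd1ko libraries 216, 411 and 447. At Rdh7 the WT libraries had 712, 328 and 546, the YAP libraries 316, 237 and 265, and the YAP_Lsd1ko libraries 292, 440 and 505. At the other junctions, where the windows differ more, Rdh1 and Rdh19 had few reads of either kind. At its second junction Rdh1 had 6 unique and 5 multi-mapped reads, and at its last 0 and 0. Rdh19 had 0 and 1 at its second junction, and 3 and 0 at its last. Rdh7 had 5749 and 9782 unique reads at its second and last junctions. Which of these genes the multi-mapped reads at the first junctions came from was not tested.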
